A study of Mus musculus with 6 samples.

Results

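The regions described here are the mouse L1Md_F2 copies that held small RNA reads, apart from 2 copies on chromosome 1 that together took 50919 reads of the class and were left out. Members were chosen by the class name that the deposited files give each L1 copy. There were 3109 such copies among 13686 L1 copies of 36 classes, and they held 10345 of 393511 listed reads, or 2.63%. Their annotated lengths ran from 4999 to 7692 bp with a median of 5753 bp.

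L1 elements are retrotransposons that move by copying their RNA back into DNA. A full-length copy carries a promoter at its 5′ end and the open reading frames ORF1 and ORF2, whose products bind the RNA and carry out reverse transcription. The F group of mouse L1 is older than the T, Gf and A groups that still move in the mouse. Small RNAs from such copies can be cut by Dicer from double-stranded RNA, can be piRNAs bound to PIWI proteins, or can be pieces of longer RNA left by other nucleases, and length, strand and first base are the features by which these kinds are usually told apart.

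Small RNA was sequenced from E14 cells, a mouse embryonic stem cell (ESC) line of 129/Ola background grown without feeders. Cells carried a lentiviral pLKO.1 vector with a non-targeting shRNA (shScr), an shRNA against Tet1 (shTet1) or an shRNA against Tet2 (shTet2). TET1 and TET2 are enzymes that oxidise 5-methylcytosine, and the comparison asks whether their depletion alters L1-derived small RNAs. Per the labels, all 3 groups were selected with 1 µg/ml puromycin, added 24 hours after infection, and collected after 3 days, while the study's methods state a higher dose. There were 2 libraries per group, and nothing in the labels says whether they came from separate infections, so p-values measure only the spread between libraries. Every group carried a lentiviral integration and a selected pool of cells, and no untransduced library was among the samples. Tet1 and Tet2 themselves could not be checked, since the files list reads inside L1 copies alone.

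The files listed from 11566 to 128715 reads per library. The L1Md_F2 copies held 3254 and 2809 reads for shScr replicates 1 and 2, 422 and 487 for shTet1 and 2614 and 759 for shTet2. Replicate 1 of each knockdown stood apart from the other libraries by its short reads: reads of 15 to 20 nt made up 66.8% (95% Wilson interval 62.2 to 71.1) of the L1Md_F2 reads in shTet1 replicate 1 and 68.0% (66.2 to 69.8) in shTet2 replicate 1, against 43.4% to 46.0% in the other 4. The same 2 libraries were also high in the other L1 copies outside the 3 copies with most reads, at 50.97% and 48.6% against 27.0% to 34.5%. The intervals cover counting error only, as reads copied by PCR are not separate molecules.

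The most frequent sequences under the L1Md_F2 reads are shown to give a view of what the reads were. Each is the genomic sequence in the direction of the read, from the build mm9 (NCBIM37), and capitals mark bases at which the most frequent read placed there had another base. The 5 most frequent antisense sequences were these.
chr9:23329657-23329674: tacaaggttgatcctgcc
chrX:76220688-76220702: tctcgGgccgggccg
chrX:128148062-128148079: tacatTgttgatcctgcc
chr13:84859846-84859860: tctcgcgccgggcGg
chr8:66298534-66298551: taccaTgttgatcctgcc
The 5 most frequent sense sequences were these.
chr3:112459953-112459967: attactctgagacct
chr7:48913477-48913495: tatcagatcaaaacaaCcc
chr13:19318023-19318037: tcgtagttggatctt
chr1:47927222-47927238: aagatccaactctgatt
chr2:143104672-143104688: agacgcAacctcagatt
All 10 are 15 to 19 nt long. For 4 of them the most frequent read was an exact copy of the genome, and for 6 it differed at 1 base.

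The antisense sequences fell into 2 sets. Of the 5, 3 end in the same 12 bases, GTTGATCCTGCC, and the other 2 begin with tctcg. The sequence of chr9:23329657-23329674 was read 271 times in 2 copies and has 17 exact places in the genome. It had 66 and 37 reads for shScr, 9 and 4 for shTet1 and 152 and 3 for shTet2, so that 1 library held more than all others together. The GC-rich sequence at chr13:84859846-84859860 has 1 place in the genome, and only 2 of its 125 reads matched it exactly. Its reads numbered 62 and 0 for shScr, 9 and 0 for shTet1 and 53 and 1 for shTet2, so they came almost wholly from the libraries numbered 1. The most frequent sense sequence, at chr3:112459953-112459967, had 14 and 37 reads for shScr, 3 and 4 for shTet1 and 22 and 7 for shTet2, and all 87 of its reads were exact.

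The 12 shared bases also occur in a ribosomal stretch of chromosome 17. A window of 6 kb on either side of AY036118 was searched, a gene whose RefSeq entry (GRCm38.p6) overlaps the 18S ribosomal RNA sequence Rn18s-rs5 by 91 bp. On the plus strand of that window the run occurs 1 time, and on the minus strand 0 times. It begins 6 bases into the site below, whose capitals mark the shared run, at 1750 bp before the annotated start of AY036118.
chr17:39983298-39983315: tacctgGTTGATCCTGCC
Reads that held the run numbered 470 in the L1Md_F2 copies, all of them antisense and spread over 24 copies. They made up 3.01% and 2.28% of the L1Md_F2 reads for shScr, 5.45% and 1.64% for shTet1 and 10.2% and 1.45% for shTet2. The knockdown libraries lay on both sides of the shScr libraries, replicate 1 above and replicate 2 below.

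Matches to the ribosomal window were frequent among the short reads. With up to 2 edits allowed, 35.2% of L1Md_F2 reads of 18 to 20 nt matched its plus strand and 1.71% its minus strand, which has the same length. The shares were 13.1% and 2.64% for reads of 15 to 17 nt, 3.18% and 0.471% for 21 to 23 nt, and 1.14% and 0.457% for 24 to 32 nt. For all reads of 21 nt or more they were 1.09% and 0.337%. Edits to the window were not set against mismatches to the L1Md_F2 copy. Whether reads that matched both were copied from ribosomal RNA or from L1Md_F2 copies was not tested.

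**Figure D1:**
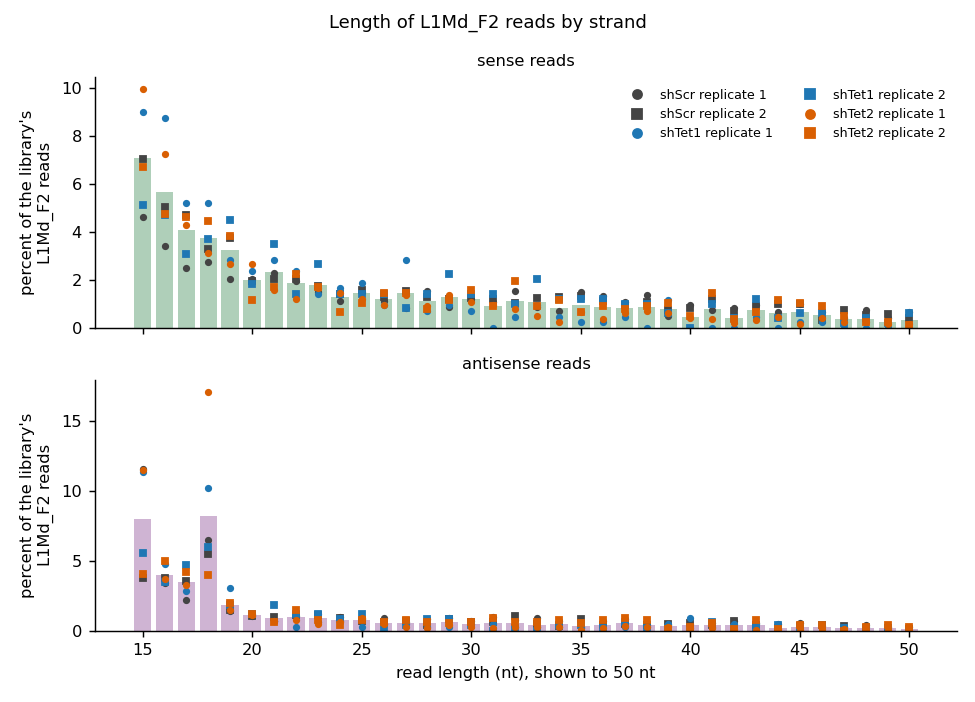
Percent of each library's L1Md_F2 reads (y axis) by read length in nt (x axis), sense above and antisense below, with bars at the mean of 6 libraries and points for single libraries. Antisense reads peaked at 15 and 18 nt, where shTet1 and shTet2 replicate 1 were the highest libraries or close to it, and from 21 to 50 nt both strands fell off.

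The L1Md_F2 reads thus comprised 5304 reads of 15 to 20 nt and 5041 of 21 nt or more, which differed in how they matched the genome, how often they repeated and their strand. Short reads matched the genome exactly in 56.4% of cases and longer reads in 78.6%. After reads of 1 library with the same position, strand and length were counted once, 63.8% of the short reads and 97.9% of the longer reads were left. Antisense reads made up 50.4% ± 6.66 (SD, n = 6 libraries) of the short reads and 31.98% ± 3.73 of the longer ones. The difference of 18.4 percentage points had the same sign in 6 of 6 libraries (exact two-sided sign-flip permutation test, p = 0.0312, the smallest it can give, and 0.0312 after adjustment over 3 comparisons chosen after the data were seen).

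Between 21 and 64 nt no length stood out. Numbers of sense reads declined from 216 at 21 nt to 188 at 22 nt, 174 at 23 nt and 134 at 24 nt. Antisense reads numbered 86, 104, 82 and 84 at the same lengths. Lengths of 21 to 23 nt, the size of Dicer products, held 850 reads or 8.22% of the total, and lengths of 24 to 32 nt, the size of piRNAs, held 1750 reads or 16.9%. Another 2441 reads were of 33 nt or more, beyond both sizes. Among them 59 sense reads and 0 antisense reads were of 75 nt, next to 5 sense reads of 74 nt and 4 of 76 nt, and reads of 75 nt were present in 6 of 6 libraries, with 4 to 26 each. The methods state a run of 75 bases, so longer RNA would be read to about this length.

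Reads of 24 to 32 nt began with A more often than A occurs in the copies, on both strands, and with T at close to the share of T. Among sense reads of 24 to 32 nt 52.2% began with A, with a range of 48.8% to 54.7% over libraries, and A makes up 39.8% of the copies' sense strand. T, the usual first base of piRNAs, began 19.9% of these sense reads against 20.5% of the strand. Among antisense reads of 24 to 32 nt 42.1% began with T, in a strand that holds 39.8% T, with a range of 39.2% to 46.7% over libraries, and 26.5% began with A, against 20.5% of the strand. A stood at the tenth base of 41.8% of the sense reads of 24 to 32 nt. In pooled reads an excess of A at the first base was not particular to 24 to 32 nt. A began 45.7% of sense and 28.7% of antisense reads of 21 to 23 nt. For reads of 33 nt or more these were 51.8% and 24.4%. At 21 to 23 nt the libraries ranged from 39.3% to 56.8% (sense) and from 9.09% to 38.1% (antisense). At 33 nt or more they ranged from 50% to 64% (sense) and from 14.3% to 35% (antisense). All but the sense range at 33 nt or more reach below the strand's share of A. The tenth base was A in 36.2% of sense reads of 21 to 23 nt and 45.3% of those of 33 nt or more. These shares are descriptions and were not tested.

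Some of the longer reads ended on the same bases in different copies. The leading groups, which held 2.54% and 1.55% of the sense reads and 1.12% of the antisense reads and were chosen after their values were seen, are shown with capitals on the last 10 bases. Each sequence below is the most frequent exact read of at most 30 nt in its group, with 1 of its places.
chr1:48253929-48253958: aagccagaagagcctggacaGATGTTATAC
chr12:64172071-64172100: accatagatgagaatggttcAGAATACAAG
chr6:8746788-8746816: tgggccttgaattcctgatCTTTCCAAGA
The first group held 85 sense reads in 83 copies, from 21 to 62 nt long, that began at differing bases and ended on GATGTTATAC at a median of 1405 bp from the 5′ end. It had 48 and 25 reads for shScr, 1 and 3 for shTet1 and 4 and 4 for shTet2, and was present in 6 of 6 libraries. Depth differed, with 1841 and 1550 longer L1Md_F2 reads for shScr, 140 and 264 for shTet1 and 836 and 410 for shTet2. The sequence shown is carried exactly at 11064 places in the genome, among them 1013 L1Md_F2 copies, 2638 L1Md_A copies and 4107 L1Md_T copies. The second group ended on AGAATACAAG and held 52 sense reads in 45 copies from 4 libraries, and the sequence shown has 1 place in the genome. The leading antisense group, ending on CTTTCCAAGA, held 19 reads in 17 copies from 3 libraries.

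Most of the longer reads could have come from other L1 classes as well. Of the 5041, 72.5% had an exact place in another L1 class, with L1Md_T carrying the sequence of 63.3%, L1Md_A of 58.1% and L1Md_F3 of 54.4%. The aligner put such reads at 1 of their places at random, so these reads are shared with other classes and are not particular to L1Md_F2. Reads with 1 place in the genome numbered 748, or 14.8%, with a range of 11.8% to 20% over libraries. Another 12.7% had several places with L1Md_F2 as the only L1 class among the listed copies. Classes were looked up only in L1 copies that held reads. Places in other L1 copies were not counted, so the shares with another class are lower bounds. Short reads had 1 place in 22.2% of cases and a place in another L1 class in 48.6%.

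The longer reads were spread over the length of the copies, with a different profile on each strand. Sense reads were most frequent from 1 to 2 kb from the 5′ end, which held 929 of 3352 (27.7%), and declined toward the 3′ end. The shortest copy was 4999 bp and the median 5753 bp, and counts beyond the shortest length were not corrected for copies that end. Pooled antisense reads were most frequent from 3 to 4 kb, with 484 of 1689 (28.7%), against 299 (17.7%) from 1 to 2 kb, and most of them were of shScr. Per library the stretch from 3 to 4 kb held more antisense reads than that from 1 to 2 kb in all but shTet1 replicate 1, where both held 7.14% of the longer reads, and shTet2 replicate 2, with 7.56% against 8.54%. With the decline of sense reads, antisense reads made up 44.2% ± 7.63 (SD, n = 6) of the reads in the fourth kb and 24.3% ± 6.06 in the second. The difference of 19.9 points was positive in 6 of 6 libraries (exact two-sided sign-flip permutation test, p = 0.0312, adjusted p = 0.0312 over the same 3 comparisons). It ran from 58.9% against 24.1% in shScr replicate 1 to 39.7% against 34.7% in shTet2 replicate 2, where it was smallest. These 2 stretches were picked after the profile was seen, as the pooled maxima of the sense and of the antisense reads. That choice favours such a difference, and the adjustment does not cover it. The first kb, which holds the promoter of a full-length copy, had 598 sense and 251 antisense reads.

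**Figure D2:**
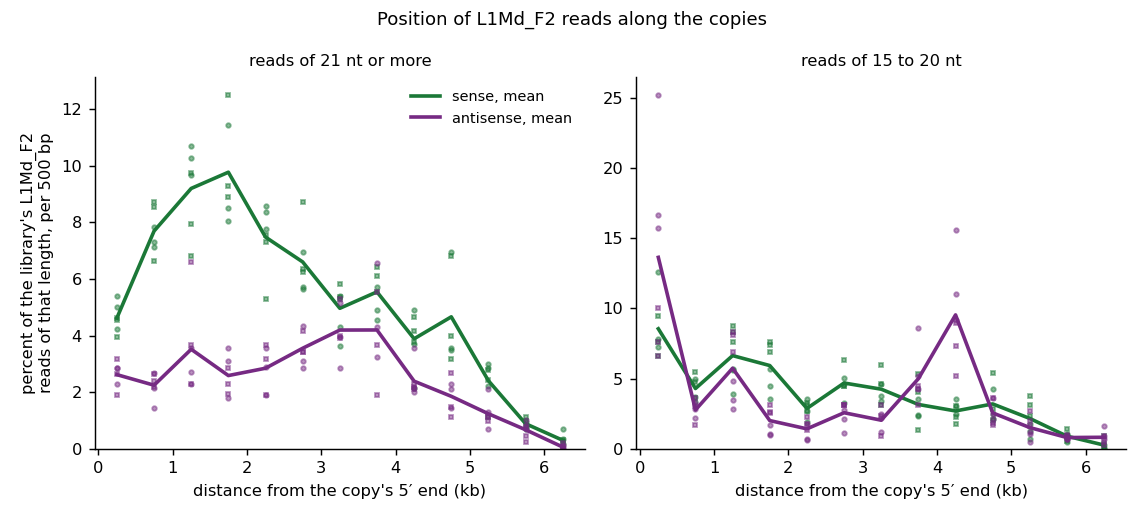
Percent of each library's L1Md_F2 reads per 500 bp (y axis) against distance from the 5′ end in kb (x axis), for reads of 21 nt or more on the left and of 15 to 20 nt on the right, with lines at the mean of 6 libraries and points for single libraries (circle replicate 1, square replicate 2). The longer sense reads are highest from 0.5 to 2.5 kb, and the short antisense reads have peaks in the first 500 bp and from 4 to 4.5 kb.

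Short reads had a profile of narrow peaks. The first 500 bp held 817 antisense reads (29.4% of the short antisense reads), and the step from 4 to 4.5 kb held 568 (20.4%). These are the steps that hold the leading sequences shown above, the GC-rich set at the 5′ end and, from 4 to 4.5 kb, 334 of the 470 reads that hold GTTGATCCTGCC. Over libraries the first peak ranged from 6.59% to 25.2% of the short reads, and the second from 5.16% to 15.6%.

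Copies with most reads were sites of such short sequences. The 10 copies with most reads held 1113 reads, or 10.8%, with 74 to 166 each and a median read length between 15 and 19 nt. In each of them a single genomic sequence gave 57.8% to 97.3% of the reads. None of the 10 lies in an annotated gene, and of all 3109 copies 2581 lie outside genes. Reads were mostly antisense in 7 copies and mostly sense in 3. The copy at chr9:23327634-23333929 led with 166 reads, 48 and 26 for shScr, 10 and 6 for shTet1 and 75 and 1 for shTet2. The copy at chr14:93392089-93398106 followed with 149 reads, 91 of which were in shTet2 replicate 1. Both hold the sequence first listed above. The copy at chr7:48908449-48914760 had 117 reads with the opposite tilt, 28 and 53 for shScr, 1 and 13 for shTet1 and 5 and 17 for shTet2. Counts in the other 7 copies ran from 74 to 130 reads: chr13:84859833-84865075, chrX:128143766-128148972, chr13:19314626-19320913, chrX:76220624-76225695, chr3:112457015-112463186, chr3:62621389-62627309 and chrX:133946470-133951737. Away from such sites reads were sparse, with a median of 2 reads per copy, 986 copies with 1 read and 26 copies with reads in all 6 libraries.

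Reads of 21 nt or more showed another order of copies. They fell in 2518 copies, of which 1201 had 1 such read, and 13 had 10 or more. The leading copies are named after their values were seen. The copy at chrX:67904934-67911755 held 52 reads, all sense, and 36 of them overlapped Rplp1-ps1, a ribosomal protein pseudogene annotated inside it on the same strand. It had 17 and 22 reads for shScr, 2 and 1 for shTet1 and 5 and 5 for shTet2. The copy at chrX:154685438-154690460 held 23 reads, 17 of them within the pseudogene Gm8662. The copy at chr3:71202339-71208720 held 27 sense reads and lies in no gene. The copy at chr6:118178007-118184283 held 18 antisense reads of 20 and lies in no gene either. In the order named, 0 of 52, 7 of 23, 2 of 27 and 1 of 20 reads had 1 place in the genome. Most reads of these copies could therefore have come from other places.

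Copies inside genes tended to hold reads of the gene's own strand. Of the 3109 copies, 528 overlapped an annotated gene, 367 in the opposite direction, 156 in the same direction and 5 in genes of both directions, and 21 touched an exon. The copies at chr4:145030373-145036048 and chr4:145008796-145015019 both lie opposite to the transcript gene Gm13227 and touch no exon of it, and they held 18 antisense of 19 and 12 antisense of 12 longer reads. The copy at chr13:62257968-62264109, opposite to the zinc finger gene Zfp808, held 17 antisense reads of 18. In contrast the copy at chr13:49689551-49695479, which runs along Cenpp, a centromere protein gene, held 10 sense reads of 11.

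The same held over all copies in genes when only reads of 21 nt or more with 1 place in the genome were used, since their genomic sequence occurs nowhere else in the build. In copies opposite to the gene 101 of 135 such reads were antisense, and in copies along the gene 16 of 75 were. As means over libraries these were 77.2% ± 8.85 (SD, n = 6) and 19.5% ± 7.27. The difference of 57.7 points was positive in 6 of 6 libraries (exact two-sided sign-flip permutation test, p = 0.0312, adjusted p = 0.0312 over 3 comparisons, chosen after the data were seen). Per library there were from 7 to 45 reads in the first set and from 5 to 23 in the second. The first set includes 15 and 10 reads of the Gm13227 copies and 9 of the Zfp808 copy. The second includes 8 reads of the Cenpp copy and 7 of the Gm8662 copy. The sets thus overlap with the examples above, and the same copies recur over libraries, so the test does not measure the spread between copies. Reads on the gene's strand can be pieces of the gene's transcript or of RNA begun in the copy, and these cannot be told apart here.

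**Figure D3:**
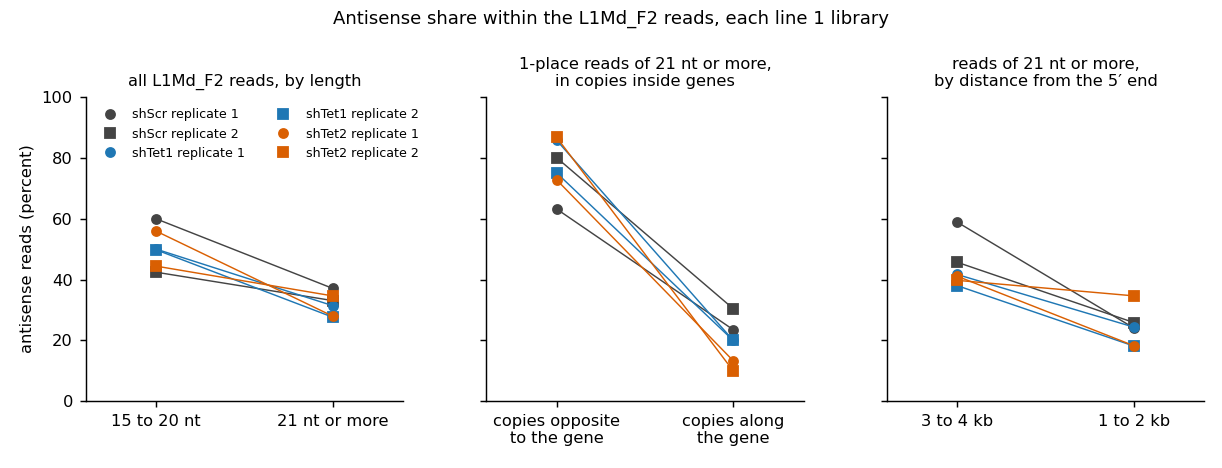
Antisense share of L1Md_F2 reads in percent (y axis) in 3 pairs of read sets (x axis), each line 1 library: short against longer reads, 1-place reads in copies opposite to or along a gene, and the fourth against the second kb. In each panel all 6 lines fall from left to right, and in no panel do the ranges of the sides overlap.

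Among other L1 classes in the same libraries, L1Md_F2 had more antisense reads than L1Md_T or L1Md_A and fewer reads near the 5′ end. L1Md_T was taken without the 1 chromosome 13 copy that had most reads. Reads were counted in the class of the copy where the aligner put them. Of the L1Md_F2 reads, 72.5% of those of 21 nt or more also had an exact place in another class. For those of 15 to 20 nt it was 48.6%. The antisense share was 42.0% ± 4.51 (SD, n = 6) in L1Md_F2, 29.5% ± 2.74 in L1Md_T and 15.4% ± 1.08 in L1Md_A. Both differences, of 12.5 and 26.6 points, held in 6 of 6 libraries (exact two-sided sign-flip permutation test, p = 0.0312, adjusted p = 0.0469 over 9 comparisons). L1Md_F3, another F class, had 46.6% ± 9.72 and lay above L1Md_F2 in 3 libraries and below it in 3 (exact permutation test, adjusted p = 0.25).

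The first kb held 23.8% ± 4.14 of L1Md_F2 reads, 38.0% ± 4.05 of L1Md_T reads and 44.3% ± 4.95 of L1Md_A reads, again lower in 6 of 6 libraries (exact permutation test, adjusted p = 0.0469 for each). In L1Md_F3 it held 30.6% ± 5.00, above L1Md_F2 in 5 of 6 libraries (exact permutation test, adjusted p = 0.0804). Reads of 24 to 32 nt made up 16.5% ± 2.16 of L1Md_F2 reads, 21.8% ± 1.36 in L1Md_T and 23.6% ± 1.27 in L1Md_A (lower in 6 of 6 libraries, exact permutation test, adjusted p = 0.0469), and 17.5% ± 2.93 in L1Md_F3 (adjusted p = 0.141 by the same exact permutation test).

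Length made a difference to these comparisons. With reads of 21 nt or more alone, the first kb still held less of L1Md_F2, at 17.2% ± 1.05 against 31.95% ± 6.41 in L1Md_T, 40.7% ± 5.20 in L1Md_A and 25.2% ± 4.91 in L1Md_F3, each in 6 of 6 libraries (exact permutation test, p = 0.0312, adjusted p = 0.0703). The antisense share was 31.98% ± 3.73 against 24.3% ± 4.56 in L1Md_T, higher in 5 of 6 libraries (exact permutation test, adjusted p = 0.112), and 12.5% ± 1.73 in L1Md_A, higher in 6 of 6 (adjusted p = 0.0703 by the same exact permutation test). The 24 to 32 nt share turned direction, to 35.8% in L1Md_F2 against 33.7% in L1Md_T and 34.0% in L1Md_A (exact permutation test, adjusted p = 0.211 and 0.201).

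**Figure D4:**
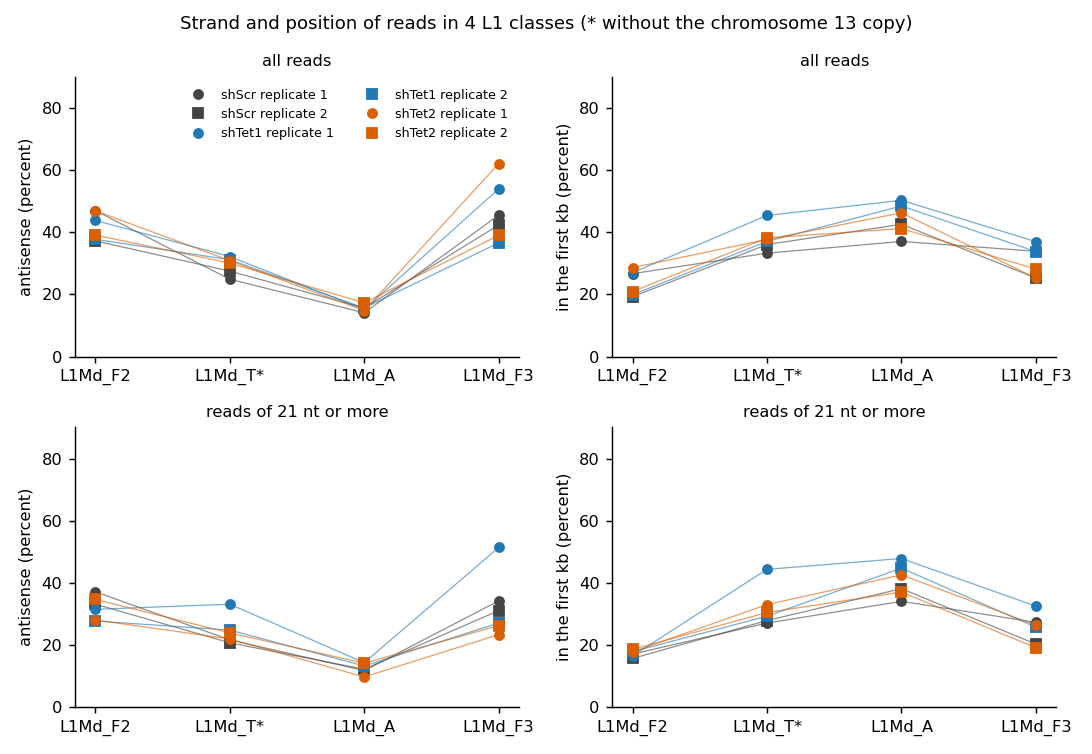
Antisense reads (left) and reads in the first kb (right) in percent of a class's reads (y axes) for 4 L1 classes (x axes), with all reads above and reads of 21 nt or more below, each line 1 library. L1Md_F2 lies above L1Md_A in antisense share and below L1Md_T and L1Md_A in the first kb in each of the 6 libraries in both rows.

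Between conditions the amount of L1Md_F2 reads was close to level. Per 1000 L1 reads outside the 3 copies with most reads in the series, L1Md_F2 had 135 and 125 reads for shScr replicates 1 and 2, 139 and 121 for shTet1 and 146 and 139 for shTet2. The shTet1 libraries lay on either side of shScr, and both shTet2 libraries lay above it. As shares, these were 13.5% (95% Wilson interval 13.1 to 13.9) and 12.5% (12.1 to 12.96) for shScr. For shTet1 they were 13.9% (12.7 to 15.1) and 12.1% (11.1 to 13.1), and for shTet2 14.6% (14.1 to 15.1) and 13.9% (12.98 to 14.8). The mean changed by -0.0023 on the log2 scale in shTet1 (exact two-sided permutation test, p = 1) and by 0.13 in shTet2 (exact permutation test, p = 0.333, the smallest that 2 libraries against 2 can give). With reads of 21 nt or more, the log2 change was -0.12 in shTet1, with 98.2 and 99.8 per 1000 against 108 and 107 in shScr, and -0.0080 in shTet2. In such shares more L1Md_F2 RNA and less RNA of other L1 copies cannot be told apart, and in pooled cells neither can fewer expressing cells and less RNA per cell.

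Limma's test was run over 24 features, which were L1 classes and, as features of their own, the 3 copies with most reads. Of these 0 (percent called 0) passed an adjusted p of 0.05 in either knockdown. An unadjusted p under 0.05 was found for 3 features in shTet1 and 4 in shTet2. L1Md_F2 changed by -0.08 on the log2 scale in shTet1 (SE 0.16, limma adjusted p = 0.897) and by 0.15 in shTet2 (SE 0.15, limma adjusted p = 0.797). TMM factors moved the median of the 24 features from 0.25 to -0.05 in shTet1, and without them the L1Md_F2 value was 0.23, close to the median of that fit. With reads of 21 nt or more 1 of 20 features counted in the same way (percent called 5) passed in shTet2, and it was not L1Md_F2.

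With all reads, the groups overlapped in strand and position. Antisense reads made up 47.0% and 37.3% of L1Md_F2 reads for shScr, 43.8% and 37.8% for shTet1 and 47.0% and 39.1% for shTet2. The mean changed by -1.34 points in shTet1 and 0.908 in shTet2, less than the SD of 6.89 in shScr (exact permutation test, p = 1 for both). The first kb held 26.7% and 19.3% for shScr, 27.0% and 19.9% for shTet1 and 28.7% and 20.9% for shTet2 (exact permutation test, p = 0.667 for both). In every group replicate 1 was the higher library in both measures. Other ways of counting did separate some groups. With repeated reads counted once, the first kb held 20.5% and 19.9% for shScr, 23.8% and 20.8% for shTet1 and 25.6% and 21.3% for shTet2, so that all 4 knockdown libraries lay above shScr, by 2.05 and 3.25 points in the mean (exact permutation test, p = 0.333 for both). With reads of 21 nt or more it held 17.002% and 15.6% for shScr, 16.4% and 17.8% for shTet1 and 17.7% and 18.5% for shTet2, and only shTet2 lay above. The antisense share of these longer reads was 37.1% and 33.1% for shScr, 31.4% and 27.7% for shTet1 and 28.0% and 34.6% for shTet2, with both shTet1 libraries below shScr and a change of -5.56 points in the mean (exact permutation test, p = 0.333) and shTet2 on both sides.

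Of 126 class, strand and 1 kb bins tested by limma, 0 (percent called 0) passed an adjusted p of 0.05 in either knockdown, and 2 in shTet1 and 8 in shTet2 had an unadjusted p under 0.05. The count of 126 takes in the 3 copies with most reads, each as a single feature not split into bins. The bins tested included 13 of L1Md_F2, of which 0 and 1 had such a p. That bin held the antisense reads from 4 to 5 kb, with 236 and 171 reads for shScr, 45 and 37 for shTet1 and 378 and 44 for shTet2. Per 1000 reads it held 9.78 and 7.62 for shScr, 14.8 and 9.19 for shTet1 and 21.1 and 8.04 for shTet2, so shTet2 replicate 1 stood alone and replicate 2 lay between the shScr libraries. The log2 change in shTet2 was 0.89 (SE 0.39, limma adjusted p = 0.604). Without shTet2 replicate 2, where the lone library is taken to vary like the other groups, it was 1.398 with a limma adjusted p of 0.0226, in a fit that called 3 of 126 bins. Of the 470 reads that hold GTTGATCCTGCC, 382 fall in this stretch. The bin next in p for shTet2, sense reads of the first kb, changed by 0.46 (SE 0.22, limma adjusted p = 0.604). For shTet1 the smallest p were those of sense reads from 4 to 5 kb, which changed by 0.38 (SE 0.31, limma adjusted p = 0.978), and of antisense reads from 3 to 4 kb, which changed by -0.38 (SE 0.35, limma adjusted p = 0.978).

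Of the measures taken over all reads, both knockdowns lay outside shScr in the shares of 2 length ranges. Reads of 15 to 20 nt made up 43.4% and 44.8% for shScr, 66.8% and 45.8% for shTet1 and 68.0% and 46.0% for shTet2. Reads of 24 to 32 nt made up 18.5% and 18.3% for shScr, 13.7% and 17.7% for shTet1 and 13.8% and 17.1% for shTet2. All 4 knockdown libraries were above shScr in the first share and below it in the second (exact permutation test, p = 0.333 for each knockdown and share). The mean 24 to 32 nt share changed by -2.66 points in shTet1 and -2.88 in shTet2. Without replicate 1 of the knockdown, the difference was -0.71 in shTet1 and -1.24 in shTet2, so most of it rested on those libraries. A share of all reads falls where the short reads rise. Taken over reads of 21 nt or more, the 24 to 32 nt share turned direction, to 32.6% and 33.1% for shScr, 41.4% and 32.6% for shTet1 and 43.3% and 31.7% for shTet2, with overlapping groups (exact permutation test, p = 1 for both). Reads of 21 to 23 nt made up 8.17% and 9.08% for shScr, 8.77% and 11.9% for shTet1 and 6.47% and 8.56% for shTet2, with overlapping groups in shTet1 and shTet2 (exact permutation test, p = 0.667 for both). Over reads of 21 nt or more they made up 15.5% ± 1.42 in shScr, 24.2% ± 3.15 in shTet1, with both libraries above shScr, and 18.03% ± 3.08 in shTet2 (SD, n = 2, exact permutation test, p = 0.333 and 0.667). The part of library preparation in the short reads was not tested.

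**Figure D5:**
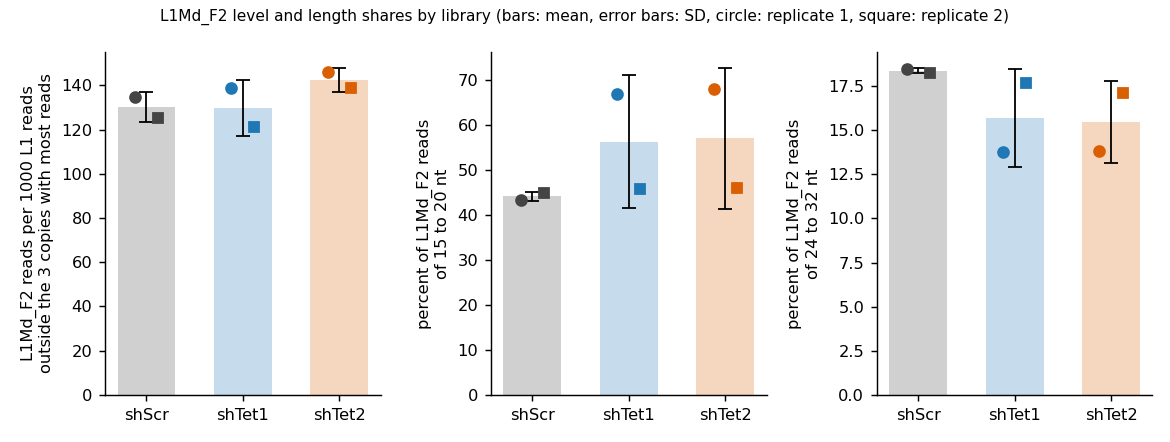
L1Md_F2 reads per 1000 L1 reads outside the 3 copies with most reads (left), and reads of 15 to 20 nt (middle) and 24 to 32 nt (right) in percent of L1Md_F2 reads, by group on the x axes, with bars at the mean, error bars at the SD (n = 2) and a point per library. Levels lie between 121 and 146, and replicate 1 of both knockdowns stands apart in the length shares.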

How the data were processed

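The authors trimmed the small RNA reads with Trim Galore 0.3.3, keeping 15 nt or more, and aligned them to mm9 with Bowtie2 2.1.0, which puts a read with equally good places at any one of them. Each line of the deposited files is 1 read with its position and its L1 copy, and no counts or normalised values are given. How the copies were chosen is not given in the sources used here. Whole-library totals were not used here.

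Reads were assigned to strand and distance from the copy's 5′ end by their middle. Genomic sequences and exact places were taken from NCBIM37, genes from GENCODE vM1, and ribosomal matches made with edlib 1.3.9.post1. Levels and shares were computed per library and compared by exact permutation tests (scipy 1.17.1). Tallies per class, and per class, strand and 1 kb bin, with at least 10 reads in 2 libraries, were fitted over all 6 libraries with limma voom (limma 3.58.1, R 4.3.3), with TMM factors from their published definition and p-values adjusted after Benjamini and Hochberg. In both tallies the 3 copies with most reads were features of their own. Of 24 simulated features of the class tally, 5 of which were shifted by 2 (log2) in shTet1, 50 rounds recovered 78.5% of those shifted and called 1.59% of the rest. For 126 bins these were 73.8% and 1.36%. The simulated counts had a fixed spread and no replicate effect, and the features with most reads were never shifted. These rates need not hold for the real libraries.

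Named were the 10 copies with most reads, the bins with an adjusted p under 0.05 or else the 2 with the smallest p in each comparison, the 5 most frequent sequences of at most 30 nt on each strand, and genes that contain a named copy. Members, lists and tests were chosen with earlier results of these data known. Alternatives were a single count for reads alike in place, strand and length, other lengths and filters, other scaling, a replicate block and each library left out.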

Additional observations from a re-analysis of the deposited data

How the results depend on the processing

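Reads of 21 nt or more were set apart after the data were seen. With them alone the L1Md_F2 level changed by -0.0080 (log2) in shTet2, and by -0.0063 in limma's class fit. In shTet2 the antisense share changed by -3.79 points, and the 21 to 23 nt share by 2.58. The 24 to 32 nt share changed by 4.13 in shTet1 and 4.63 in shTet2. The difference from L1Md_T became 7.68 points (antisense), -14.8 (first kb) and 2.095 (24 to 32 nt), and that from L1Md_A 19.5, -23.5 and 1.78, with no adjusted p under 0.05. With reads of 15 to 20 nt alone, the first kb share changed by -4.24 points in shTet1 and -2.80 in shTet2, and the antisense share by -1.02 in shTet2. Counting repeated reads once gave a level change of 0.050 (log2) in shTet1 and an antisense change of -1.48 points in shTet2. The class fit then gave -0.053 for shTet2. Differences from L1Md_F3 became 0.314 (antisense), -7.16 (first kb, adjusted p = 0.0352 by the exact permutation test) and -3.16 (24 to 32 nt, the same p). Leaving out the 10 copies with most reads gave -0.412 for the antisense change in shTet2 and 0.677 for the 24 to 32 nt difference from L1Md_F3. The log2 change in shTet1 was 0.26 for the level per 1000 of all listed reads and 0.23 in the class fit without TMM. The cause of these shifts was not tested.

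With single libraries left out, the shTet1 values ran from -0.10 to 0.093 (level), -6.21 to 3.54 (antisense), -3.24 to 4.17 (first kb) and -0.24 to 0.13 (class fit), and the shTet2 values from -3.96 to 5.78 (antisense) and -2.05 to 5.65 (first kb). Signs turned without shScr replicate 1, shScr replicate 2, shTet1 replicate 1, shTet1 replicate 2 or shTet2 replicate 1. The L1Md_F2 bins called for shTet2 numbered from 0 to 1, the 1 without shTet2 replicate 2, where 3 of 126 bins were called. With 5 libraries the smallest exact permutation p is 0.0625, so calls between classes end by construction. Differences from L1Md_T then ran from 10.6 to 13.7 (antisense), -15.7 to -13.4 (first kb) and -5.81 to -4.50 (24 to 32 nt), and those from L1Md_A from 25.3 to 27.6, -22.6 to -19.0 and -7.55 to -6.20. Within L1Md_F2 they ran from 16.5 to 20.2 (short against longer), 53.9 to 61.3 (genes) and 16.96 to 22.9 (3 to 4 kb against 1 to 2 kb).

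With a replicate block the L1Md_F2 change in the class fit was -0.07 in shTet1 and 0.14 in shTet2 (limma adjusted p = 0.758 and 0.611), 0 bins were called, and no call changed. Deviations of same-numbered libraries correlated from 0.0782 to 0.588 over classes and from -0.0011 to 0.261 over bins, across features that are not independent, and the labels do not say that the numbers mark a shared batch.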
